A study of Homo sapiens with 24 samples.

Results

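SK-N-BE(2) cells with short hairpin RNAs against NDUFS6 were set against the same line with the matching empty vector, 3 libraries a side, across the whole transcriptome. Of 60564 genes in the deposited table, 13164 stood at 1 FPKM or more in at least 3 of these 6 libraries and were tested; FPKM is the number of fragments scaled by transcript length and by the mapped fragments of the library. SK-N-BE(2) is a human neuroblastoma line with an amplified MYCN gene. The series holds 24 libraries in 8 groups of 3, in SK-N-BE(2) and in the neuroblastoma line SH-SY5Y, each with NDUFS6 knocked down or overexpressed and each with an empty vector control for either construct. The groups used here are the SK-N-BE(2) NDUFS6 knockdown, the SH-SY5Y NDUFS6 knockdown with its own empty vector control, the SK-N-BE(2) empty vector control for the knockdown, and the SK-N-BE(2) empty vector control for the overexpression construct, called the other control below. All of them are stable lentiviral lines that were treated with polybrene, selected with puromycin for about a week and grown in minimum essential medium with fetal bovine serum. The labels call the libraries biological replicates without saying whether each came from its own infection, so the p-values reflect library spread that could be partly technical. Protein levels were not analysed here.

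NDUFS6 encodes a small zinc-binding protein of the mitochondrial respiratory chain that completes complex I late in assembly. Complex I oxidises NADH and pumps protons for ATP synthesis, and its loss in cultured cells changes the supply of aspartate, serine and other building blocks as well as the redox state. Neuroblastoma cells hold an adrenergic identity kept by transcription factors such as HAND2 and ISL1, or a mesenchymal one marked by factors such as FOSL1 and the ID proteins.

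FPKM summed to 249788 to 259629 in the knockdown libraries, 270842 to 272957 in their controls and 250045 to 255827 in the other control, of which genes of mitochondrial DNA took 27.8%, 33.8% and 28.7% on average. Without those genes the mean sums were 182620, 179942 and 180081. Between pairs of libraries of 1 group, log2 values differed with an SD of 0.202 to 0.233 in the knockdown, 0.174 to 0.184 in its control and 0.172 to 0.200 in the other control. By this measure no library stood apart. All 24 libraries carry the same batch label. The depth behind the values is unknown, since the table holds no counts. All 14 neuroblastoma identity markers reached 1 FPKM in each of the 3 groups. The 12 immune markers summed to at most 0.848 FPKM in any of the 9 libraries, with CD3D, MS4A1, LYZ and NKG7 at 0 in the knockdown and its control, the epithelial markers to at most 4.81 and the endothelial markers to at most 4.46.

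NDUFS6 itself (ENSG00000145494, chr5:1801400-1816605 in hg38) had 1.09, 1.61 and 1.3 FPKM in the knockdown libraries, against 9.29, 12.2 and 11.9 in their controls and 11.8, 13.9 and 12.7 in the other control. The knockdown libraries lay below every control library, a log2 change of -2.38 (SE 0.12, limma adjusted p = 6.07e-13). Log2 changes are differences between group means of log2(FPKM + 1); for genes at low levels they are smaller than the log2 ratio of the FPKM values. MRPL36, a mitochondrial ribosomal protein gene whose start lies 34 bases from that of NDUFS6 on the opposite strand, changed by 0.21.

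Beyond the target, 8219 of 13163 genes (62.4%) passed limma's test at an adjusted p under 0.05. Of these, 3985 (30.3% of the tested genes) were higher and 4234 (32.2%) lower in the knockdown, so that 48.5% of the calls were rises; with each library scaled to a fixed sum (TPM), 4876 were higher and 3259 lower, 59.9% rises. Most changes were small. The median over all tested genes was -0.02, and 9 in 10 genes lay between -0.70 and 0.87. At 2-fold or more, 506 genes (3.84%) rose and 216 (1.64%) fell. The upper end was the longer one, with 89 rises and 15 falls of 4-fold or more, and 19 rises and 1 fall of 8-fold or more. The 506 risen genes took 5.42 ± 0.482% of all FPKM in the knockdown libraries, against 1.34% in their controls and 1.81% in the other control (SD, n = 3), and the 216 fallen genes took 1.14 ± 0.0907% in the knockdown, against 2.67% in its control and 2.02% in the other control. The share of the risen genes was largest in knockdown library 1, at 5.97%, against 5.09% and 5.19% in libraries 2 and 3.

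The same knockdown libraries set against the other control gave 7071 calls, 371 of them 2-fold rises and 139 2-fold falls. The knockdown libraries lay above all 6 empty vector libraries of the line in 2623 called genes (19.9%) and below all 6 in 2682 (20.4%). Of the 2-fold changes, 489 of 506 rises (96.6%) and 174 of 216 falls (80.6%) lay outside all 6. In the text below, values against the other control stand beside those against the matching control where they bear on a call. The 7 lists of stress genes (chaperones and stress sensors of the endoplasmic reticulum, the ATF4, early, heat shock, NRF2 and hypoxia genes) had 206 tested genes, of which 176 rose and 12 fell, with a median of 1.05. They held 107 of the 506 2-fold rises and none of the 216 2-fold falls, which leaves 399 rises and 216 falls outside them.

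Promoter sequence was compared with the change, since several groups of genes moved together. RefSeq windows (GRCh38.p14) of 250 bases before to 50 after the gene start were matched to 9067 of 11071 tested protein-coding genes (81.9%), and fixed motifs were searched on both strands. The ER stress element, CCAAT followed by 9 bases and CCACG, is the known binding sequence of ATF6 with NF-Y. It stood in 14 windows (0.154%). Of these 14 genes, 11 rose and 1 fell, with a median of 1.66 (1.57 against the other control), beside a median of 0.00 over all matched genes. These stretches are shown because their genes lie at both ends of that range, with the 2 parts of the element in capitals as they read on the gene's strand (ATTGG and CGTGG on the reverse).
HSPA5 (chr9:125241383-125241417, minus strand): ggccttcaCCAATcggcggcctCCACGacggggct
XBP1 (chr22:28800595-28800629, minus strand): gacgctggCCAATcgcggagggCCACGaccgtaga
FICD (chr12:108515115-108515149, plus strand): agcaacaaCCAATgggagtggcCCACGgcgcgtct
TRIM5 (chr11:5685107-5685141, minus strand): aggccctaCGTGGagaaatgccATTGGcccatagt
SERP1 (chr3:150546702-150546736, minus strand): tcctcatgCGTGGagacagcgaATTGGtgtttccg
EIF2A (chr3:150546702-150546736, plus strand): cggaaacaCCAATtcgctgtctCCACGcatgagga
ZNF17 (chr19:57410912-57410946, plus strand): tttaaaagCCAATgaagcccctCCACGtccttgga

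HSPA5, the main chaperone of the endoplasmic reticulum, averaged 928 ± 86.1 FPKM in the knockdown, against 64.2 ± 0.865 in the control (SD, n = 3 each), a log2 change of 3.83. XBP1, a transcription factor of the unfolded protein response, followed at 2.45, then CRELD2 at 2.35, HSP90B1 at 2.20, CALR at 2.00, ERO1B at 1.88 and CANX at 1.10, all folding factors of that compartment. Genes in none of the stress lists also carried the element. FICD, an enzyme that modifies HSPA5, had 4.39, 3.4 and 3.73 FPKM in the knockdown libraries, against 0.321, 0.322 and 0.262 in their controls. TRIM5, a ubiquitin ligase known for blocking retroviral capsids, stood at 9.31, 6.92 and 7.76 in the knockdown, against 2.28, 2.3 and 2.3 in its control. The log2 changes of FICD and TRIM5 were 1.89 and 1.44. FICD was under 1 FPKM in all libraries of its control and entered the test only through the knockdown, so it had to differ. TRIM5 did not overlap its control. The SERP1 stretch is the same place as the EIF2A stretch on the other strand: SERP1 rose by 0.98, while EIF2A changed by 0.08 (limma adjusted p = 0.0986). ALG12 and CRELD2 share an element in the same way, at 0.72 and 2.35. TMEM120A changed by -0.02, and ZNF17 fell by 0.38.

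The core TGATGCAA (TTGCATCA on the reverse strand) of the CARE sequence, at which ATF4 pairs with C/EBP proteins, stood in 44 windows (0.485%). Of these genes 30 rose and 9 fell, with a median of 0.29 (0.31 against the other control). The cytosolic aminoacyl-tRNA synthetase genes CARS, AARS, MARS, TARS, NARS and IARS were among them, and all of these rose. The stretches below show the core in capitals in the stress gene CHAC1, a pair of synthetases and the neighbours SH3BGRL and HMGN5, which share a stretch and fell.
CHAC1 (chr15:40953250-40953281, plus strand): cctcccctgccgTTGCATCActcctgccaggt
CARS (chr11:3057406-3057437, minus strand): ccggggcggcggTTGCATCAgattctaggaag
AARS (chr16:70289674-70289705, minus strand): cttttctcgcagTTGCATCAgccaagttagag
SH3BGRL (chrX:81201960-81201991, plus strand): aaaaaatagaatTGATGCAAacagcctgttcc
HMGN5 (chrX:81201960-81201991, minus strand): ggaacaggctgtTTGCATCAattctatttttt

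CARS, which charges the cysteine tRNA, had 20.2, 16.7 and 16.9 FPKM in the knockdown libraries, against 3.25, 3.44 and 3.41 in their controls. AARS, the alanine enzyme, stood at 103, 90.04 and 88.5 in the knockdown, against 27.6, 27.2 and 28.6 in its control. In each the knockdown libraries were above all 6 empty vector libraries. HMGN5, a nucleosome-binding protein, averaged 0.605 ± 0.0328 FPKM in the knockdown, 4.59 ± 0.459 in its control and 1.04 in the other control, and its neighbour SH3BGRL changed by -0.28, so the same letters stood beside a large rise in one place and a fall in another.

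The cell cycle homology region TTTGAA, a known element of genes that peak in mitosis, is short and stood in 834 windows (9.2%), whose genes rose in 28.5% and fell in 41.1% of cases, with a median of -0.09 (-0.03 against the other control). It stood in 44 of the 66 matched genes of the mitosis list (66.7%, 88% of the list matched) and in 2 of the 48 matched genes of the replication and S phase list (4.17%, 81.4% matched). The stretches below, with TTTGAA in capitals, are from list members chosen after their values were seen: CDK1, BUB1B, PLK1 and CCNB2, which fell, and SKA1, which rose by 0.62.
CDK1 (chr10:60778158-60778187, plus strand): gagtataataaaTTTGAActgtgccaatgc
BUB1B (chr15:40161034-40161063, plus strand): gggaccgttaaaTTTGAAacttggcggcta
PLK1 (chr16:23678848-23678877, plus strand): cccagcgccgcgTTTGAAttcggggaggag
CCNB2 (chr15:59105105-59105134, plus strand): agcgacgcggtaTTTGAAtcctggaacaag
SKA1 (chr18:50375068-50375095, plus strand): cgcggcgggcggTTTGAAttttgcttac

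Over all 9067 matched genes 33.9% rose and 31.9% fell. Of the genes with TGACTCA (AP-1, 223 windows, 2.46%) 40.8% rose and 25.6% fell, with a median of 0.09 (0.03 against the other control). Of those with TGACGTCA (the cyclic AMP element, 327 windows, 3.61%) 42.2% rose and 26.6% fell, with a median of 0.08 (0.06 against the other control). The remaining motifs were closer to the shares of all matched genes: 32.2% rose and 34.1% fell with CACGTG (the E-box of MYC and other factors, 956 windows, 10.5%), and 32.6% rose and 34.1% fell with CCAAT alone (3403 windows, 37.5%), which is also part of the ER stress element. A match is a description of the letters only.

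**Figure D1:**
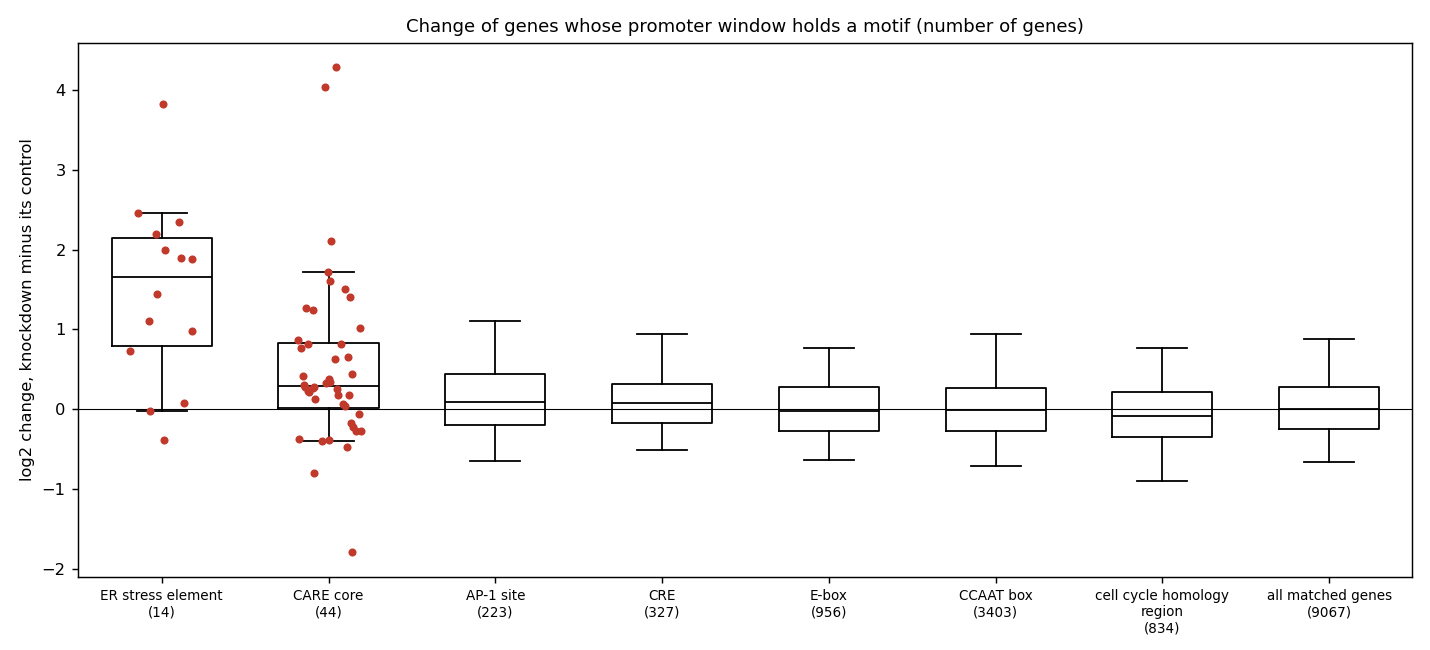
Log2 change (knockdown minus its empty vector control) of genes whose promoter window holds each motif, with the number of genes in brackets. Boxes span the quartiles with the median as a line, whiskers the 5th to 95th percentiles, and points are single genes for the 2 rarest motifs. The 14 genes with an ER stress element have a median of 1.66 and the 44 with the CARE core one of 0.29, while all 9067 matched genes centre on 0.

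The 12 largest rises outside the stress lists included secreted and cell surface proteins. IGFBP3, which binds insulin-like growth factors, was measured at 36.1, 37.6 and 36.6 FPKM in the knockdown libraries, against 1.02, 1.02 and 1.09 in their controls and 21.2, 20.4 and 19.7 in the other control. It was high in the knockdown and in the other control and low only in the matching control, so its log2 change was 4.21 (SE 0.08, limma adjusted p = 9.99e-20) against the matching control and 0.82 against the other. NPY, the neuropeptide Y of sympathetic neurons, had 21.2, 16.7 and 16.6 FPKM in the knockdown libraries, against 0.401, 0.245 and 0.325 in their controls and 1.58, 1.77 and 1.42 in the other control. Its log2 change was 3.85 (SE 0.12), and 2.88 against the other control. THBS1, the matrix protein thrombospondin-1, had 11.1, 10.3 and 11.5 FPKM in the knockdown libraries, against 0.331, 0.46 and 0.343 in their controls, a log2 change of 3.12 (SE 0.06). NPY and THBS1 were under 1 FPKM in all libraries of the matching control and entered the test only through the knockdown. They had to differ, and the rule for naming also required their separation from both controls, so nothing is read from either.

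The remaining named rises included structural and signalling genes. CNN2, an actin-binding calponin, rose by 3.02 (1.75 against the other control), and S100A10, the annexin A2 partner, by 2.97 (1.40). SIPA1L2, a Rap GTPase-activating protein, rose by 2.85 (1.63). CDKN1A, the gene of the kinase inhibitor p21, had 16.5, 12.2 and 11.7 FPKM in the knockdown libraries, against 1.36, 1.16 and 0.561 in their controls, a log2 change of 2.84 (SE 0.13, limma adjusted p = 2.26e-13). TNFRSF12A, the receptor of the cytokine TWEAK, rose by 2.76 (2.62). DLX2, a homeobox factor of the developing forebrain and neural crest, was measured at 9.66, 10.3 and 9.78 FPKM in the knockdown libraries, against 0.852, 0.505 and 0.776 in their controls and 4.94, 4.33 and 3.85 in the other control. The knockdown was highest, as the rule for naming required, and the controls also differed from each other. DLX2 too entered the test only through the knockdown libraries.

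A microRNA gene and 2 unnamed transcripts completed the list, and all lie within stress genes. MIR616 (chr12:57519163-57519259, minus strand) lies within DDIT3 and on its strand. Its level was 14.1, 16.1 and 20.3 FPKM in the knockdown libraries, against 0.713, 0.0862 and 0.678 in their controls, a log2 change of 3.59 beside 5.99 for DDIT3, which encodes the stress factor CHOP. AC012181.3 and AC012181.2 overlap each other, lie within HERPUD1 (chr16:56932048-56944863) on its strand and rose by 2.96 and 2.86 beside 4.04 for HERPUD1. Reads of these small features and of their hosts cannot be told apart in the table, and the values are not levels of mature microRNAs. The mature products of MIR616 are given from RefSeq (GRCh38.p14, minus strand), with the seed, bases 2 to 8, in capitals; the 2 arms do not share a seed.
hsa-miR-616-3p (chr12:57519183-57519204): aGUCAUUGgaggguuugagcag
hsa-miR-616-5p (chr12:57519223-57519244): aCUCAAAAcccuucagugacuu

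Of 62 tested microRNA genes, 25.8% were called higher and 11.3% lower, against 30.3% and 32.2% of all tested genes. At 2-fold or more 11 were higher and none lower, but 9 of the 11 had no control library at 1 FPKM or more and entered the test only through the knockdown libraries, so they had to differ and nothing is read from this count. MIR6515 lies within CALR (2.00), MIR6775 within SLC7A5 (2.32) and MIR103A2 within PANK2 (0.94), while PLD3 around MIR6796 changed by 0.26 and PIM3 around MIR6821 by 0.63. The MIR3648 and MIR3687 genes have near-identical copies on chromosome 21, so their values are uncertain.

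Among the 12 largest falls, NDUFS6 was in place 5 and the first was an ectoenzyme. NT5E (CD73), which makes adenosine from extracellular AMP, had 1.56, 1.05 and 1.24 FPKM in the knockdown libraries, against 56.9, 54.4 and 55.9 in their controls and 6.4, 6.88 and 6.72 in the other control. All 3 groups were separate, as the rule for naming required of the knockdown, with a log2 change of -4.64 (SE 0.11, limma adjusted p = 1.62e-17) against the matching control and -1.75 against the other. GJA1, the gap junction protein connexin 43, fell by 2.74 on the log2 scale and by 1.67 against the other control. Of the adrenergic factors, INSM2, a zinc finger protein of neuroendocrine cells, had 23.3, 31.5 and 29.3 FPKM in the knockdown libraries, against 159.6, 156 and 156 in their controls, with log2 changes of -2.46 and, against the other control, -1.82.

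TXNIP, an inhibitor of glucose uptake that is itself induced by glucose through MondoA, was close in both controls and far lower in the knockdown. It had 7.21, 7.82 and 7.81 FPKM in the knockdown libraries, against 38.1, 40.7 and 40.2 in their controls and 34.3, 35.2 and 33.8 in the other control, a log2 change of -2.24 (SE 0.11). SLFN11, which blocks replication forks under stress, fell by 2.31 (1.14 against the other control), TMEM100 by 2.30 (1.39) and the neuronal membrane protein gene SLITRK6 by 1.94 (1.54). VEGFD, a growth factor of lymphatic vessels, fell by 2.07 against the matching control but by 0.34 against the other. MT-TW, the tryptophan tRNA of mitochondrial DNA, fell by 2.49 and by 0.61, and AL121594.3, which shares exons with KIAA0391 and PSMA6 and is uncertain, by 2.04 and 1.43.

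**Figure D2:**
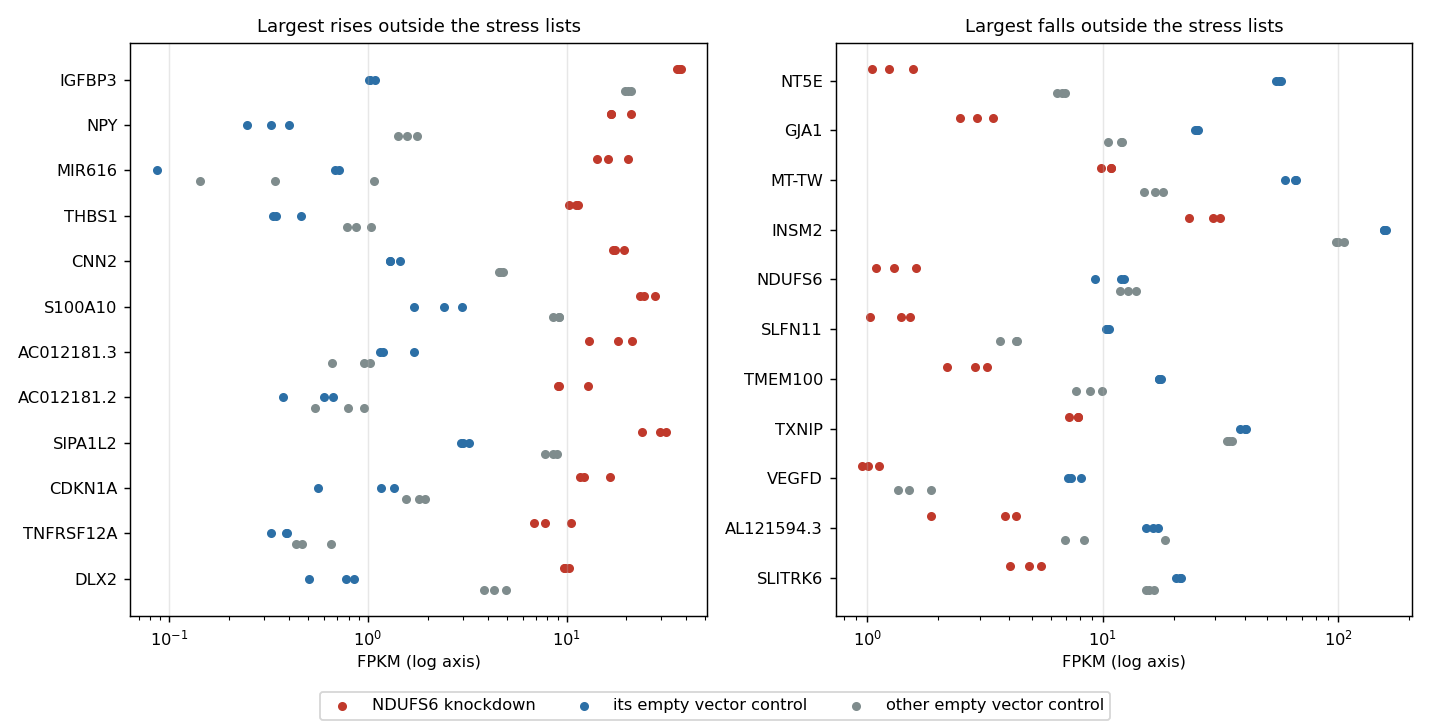
FPKM (log axis) of the 12 largest rises and 11 of the 12 largest falls outside the stress lists, a point per library, for the knockdown (red), its empty vector control (blue) and the other empty vector control (grey). The knockdown points lie outside both control groups in every row, as the choice of genes required, and the grey points lie between the other groups for IGFBP3, DLX2 and NT5E but close to the blue ones for TXNIP.

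Some genes were near 0 on one side. At 0.5 FPKM or less in all 3 libraries of a group and 2 FPKM or more in all 3 of the other, 43 genes were high in the knockdown and 4 in its control. Such genes entered the test only through the group where they were high. They had to differ, and nothing is read from these counts. The highest of the 43 included FOSL1, an AP-1 and mesenchymal factor, at 19.6, 14.8 and 15.2 FPKM in the knockdown libraries, against 0.0581, 0 and 0.161 in their controls and 0.47, 0.277 and 0.232 in the other control. GDF15, a stress hormone that acts on the brainstem, stood at 12.3, 6.86 and 6.62 FPKM in the knockdown, against 0, 0.0921 and 0.0394 in its control. ANGPTL4, an inhibitor of lipoprotein lipase, stood at 7.82, 8.44 and 8.03 FPKM in the knockdown, against 0.433, 0.267 and 0.236 in its control. ADM2, a peptide hormone of the calcitonin family, and CAVIN1, a coat protein of caveolae, rose by 2.76 and 2.38. In the other direction stood VSNL1, a neuronal calcium sensor (-1.66), CHSY3, a chondroitin synthase (-1.80), and EMP3 (-1.53). NUP62CL changed by -1.55 against the matching control and by -0.01 against the other.

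A further set of calls was not separate from the other control. Of the called genes with a mean of 5 FPKM or more in the higher group and in no stress list, the knockdown libraries overlapped the range of the other control in 672 rises and 729 falls. PYGL, the liver-type glycogen phosphorylase, was measured at 14.7, 15 and 14.5 FPKM in the knockdown libraries, against 3.22, 3.41 and 3.74 in their controls and 14.7, 14.4 and 14.9 in the other control. NRAS, the Ras GTPase mutated in many tumours, stood at 58.8, 54.4 and 60.9 FPKM in the knockdown, against 139.9, 145 and 143 in its control and 56.3, 56.3 and 58.5 in the other control. In both, the knockdown and the other control overlapped and the matching control stood apart. The same held for the neural homeobox gene DLX1 (1.75 and -0.07 against the other control), the protease inhibitor SERPINI1 (1.20 and 0.09), the retinoid carrier CRABP1 (1.12 and 0.31) and the epoxide hydrolase EPHX1 (1.09 and 0.09). Among falls it held for butyrylcholinesterase BCHE (-2.34 and -0.06), ITM2A (-2.34 and -0.13), the metalloprotease ADAM12 (-2.16 and 0.01) and CCDC136 (-1.43 and -0.46). The readthrough transcripts HNRNPUL2-BSCL2 and RPL17-C18orf32 share their exons with other genes and were uncertain, with a library at 0 in the control of the first (5.42, 1.69 and 0 FPKM) and in the knockdown of the second (13.2, 22.8 and 0 FPKM). Leaving out single libraries moved the first (1.85) to between 1.17, without control library 3, and 2.51, without control library 1, and the second (-2.23) to between -3.12, without knockdown library 2, and -0.83, without knockdown library 3.

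The tested genes are also described through 60 lists of pathways, families and cell functions. Genes of the stress lists were not taken out of these lists, so a gene can be counted in both. In 35 lists more tested members rose than fell and in 25 more fell; the direction of 28 of the 35 and 15 of the 25 was the same under TPM scaling, median of ratios scaling and against the other control. A gene entered only at 1 FPKM or more in at least 3 of the 6 libraries, so list members at or near 0 in both groups are not counted and those present in 1 group only are. Each count is to be read against the 30.3% and 32.2% of all tested genes that rose and fell. For counts against the other control these shares are 25.1% and 28.6%, and under TPM scaling 37% and 24.8%.

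**Figure D3:**
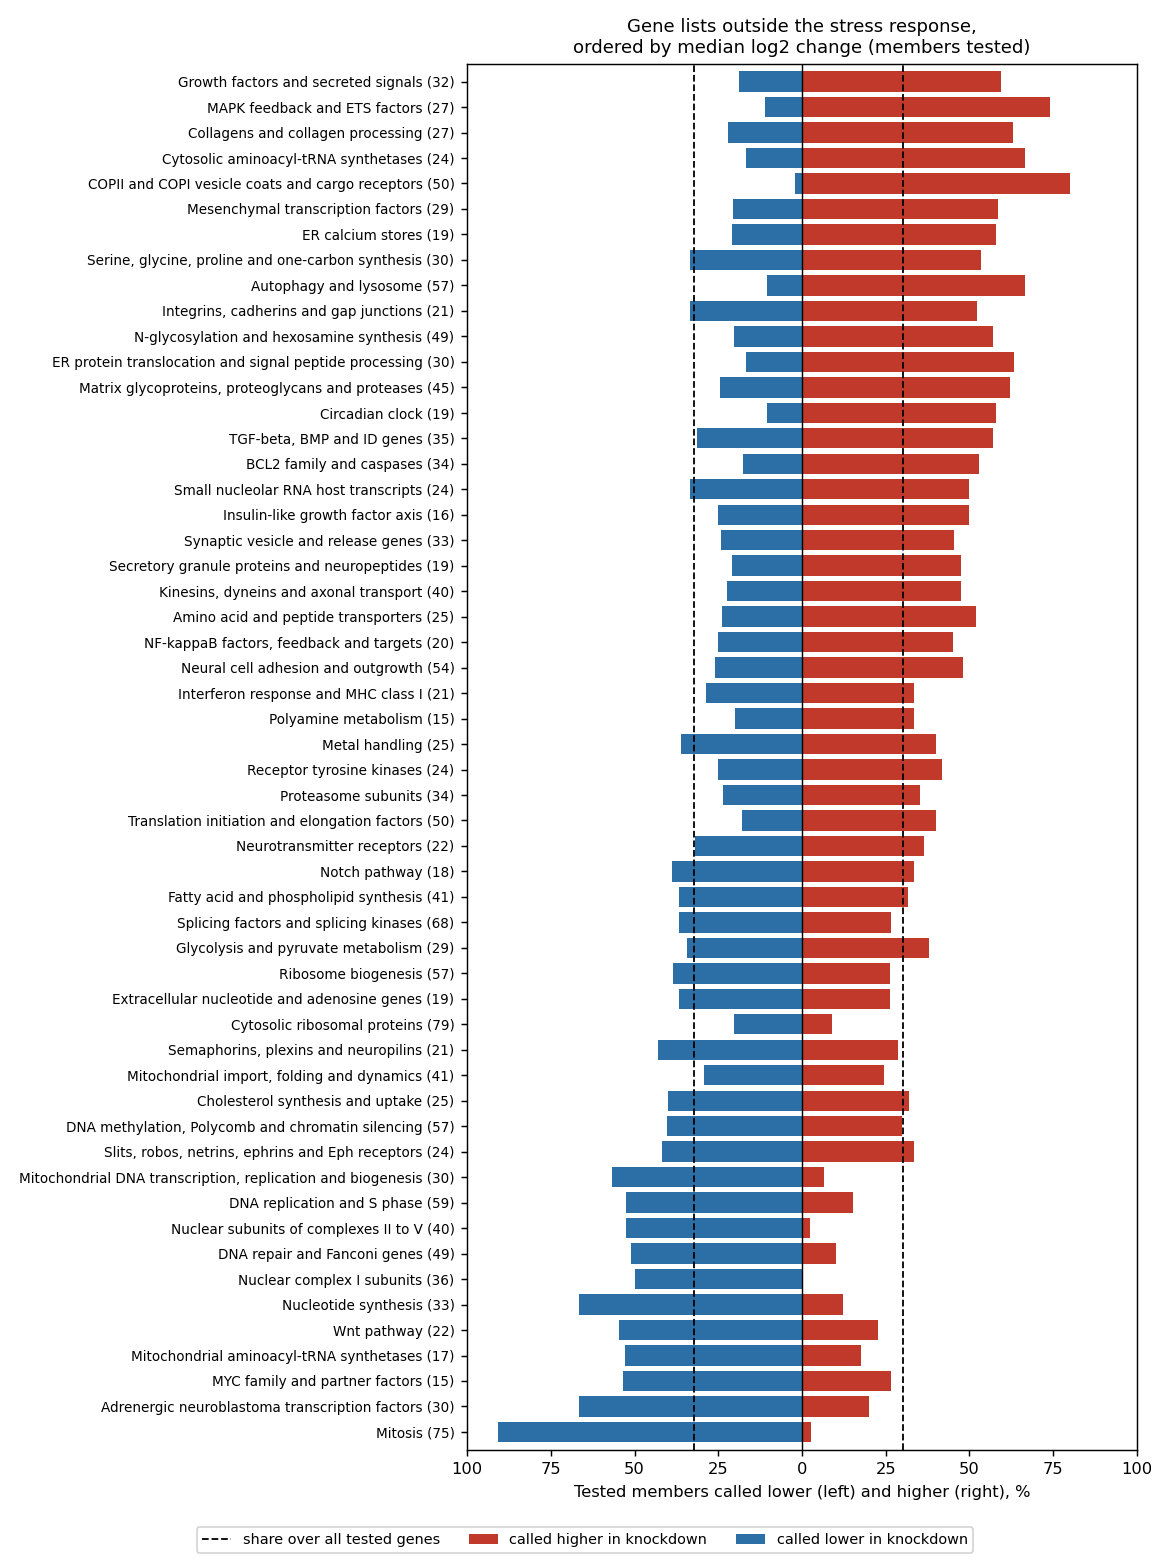
Share of tested members called lower (left, blue) and higher (right, red) in the knockdown for gene lists with at least 15 tested members, ordered by median log2 change, with the number tested in brackets. Dashed lines mark the 30.3% and 32.2% over all tested genes. Genes of the stress lists were not taken out of these lists. COPII and COPI coats, autophagy and cytosolic tRNA synthetases extend past the line on the right, and mitosis, nucleotide synthesis and the adrenergic factors on the left.

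The secretory pathway rose beyond its chaperones. Of 52 genes of COPII and COPI vesicle coats and their cargo receptors, 50 were tested, 40 rose and 1 fell, with a median of 0.44 (35 rose and 0 fell against the other control, median 0.38). TMED7, a cargo receptor, had 58.4, 44.6 and 48.4 FPKM in the knockdown libraries, against 16.6, 15.1 and 15.1 in their controls, and its reads may be shared with the readthrough gene TMED7-TICAM2. The coat subunits SEC24A (1.17) and SEC24D (0.89) and the cargo receptor TMED5 (1.07) also rose. Of 49 tested genes of N-glycosylation and hexosamine synthesis, 28 rose and 10 fell (median 0.26, 0.18 against the other control). GFPT1, the first enzyme of hexosamine synthesis, rose by 1.46, the mannosyltransferase ALG2 by 1.38 and the oligosaccharyltransferase subunits STT3B and RPN1 by 0.99 and 0.79.

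Of 30 genes of ER translocation and signal peptide processing, 19 rose and 5 fell (median 0.26), and the members did not move as a block. SEC61A1, the channel itself, rose by 0.83 and the signal peptidase subunit SEC11C by 0.82. SRP9, a subunit of the signal recognition particle, had 93.7, 106 and 95.2 FPKM in the knockdown libraries, against 172, 171 and 175 in their controls, a fall of all 3 below both controls. Of 19 tested genes of ER calcium stores, 11 rose and 4 fell, among them the calcium pump ATP2A2 (1.10) and the calcium-binding proteins RCN1 (0.83) and NUCB2 (0.997). Of 57 tested autophagy and lysosome genes, 38 rose and 6 fell (median 0.31, 0.22 against the other control). SQSTM1, the receptor p62, stood at 40.3, 33.9 and 33.7 FPKM in the knockdown, against 7.91, 7.23 and 7.52 in its control, and the ATG8-family genes GABARAPL1 and MAP1LC3B rose by 1.89 and 1.54.

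Most cytosolic aminoacyl-tRNA synthetases, which load amino acids onto tRNAs, rose, while more of the mitochondrial ones fell than rose. Of 24 cytosolic genes 16 rose and 4 fell, with a median of 0.46 (17 rose and none fell against the other control, median 0.31). GARS, the glycine enzyme, had 139.7, 115 and 107 FPKM in the knockdown libraries, against 28.9, 29.5 and 29.9 in their controls, and TARS, the threonine enzyme, rose by 1.27. Of 17 mitochondrial genes 3 rose and 9 fell, with a median of -0.32 (-0.16 against the other control). MARS2 and AARS2 changed by -0.74 and -0.60. GARS has a mitochondrial form as well and is counted with the cytosolic genes.

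Of 30 tested genes of serine, glycine, proline and one-carbon synthesis, 16 rose and 10 fell (median 0.32), and 9 rose at least 2-fold. PSAT1, an enzyme of serine synthesis, was measured at 190.0, 161 and 152 FPKM in the knockdown libraries, against 46.9, 49.4 and 49.1 in their controls, GPT2, the mitochondrial alanine transaminase, at 32.4, 30.3 and 28.7 in the knockdown, against 7.07, 7.36 and 6.75 in its control, and PSPH and the folate enzyme MTHFD2 rose by 1.93 and 1.55. Of 25 tested amino acid and peptide transporters 13 rose and 6 fell, but 10 rose and 10 fell against the other control. The largest of these was SLC7A11, the cystine importer, at 65.1, 41.3 and 57.6 FPKM in the knockdown libraries, against 2.24, 2.09 and 2.15 in their controls. Its partner chain SLC3A2 rose by 2.40, the leucine carrier SLC7A5 by 2.32 and the alanine and serine carrier SLC1A4 by 1.91, all above both controls. Of 33 tested nucleotide synthesis genes 4 rose and 22 fell (6 and 15 under TPM scaling), with a median of -0.22 (-0.12 against the other control), among them CAD, which starts pyrimidine synthesis (-0.85), and the purine enzymes PFAS (-0.73) and PAICS (-0.55).

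Translation itself moved little as a group. Of 50 initiation and elongation factors 20 rose and 9 fell (13 and 9 against the other control, median 0.07 against the matching one), with the initiation factor subunit EIF2S2 at 127, 118 and 106 FPKM in the knockdown libraries, against 41, 40.1 and 40.1 in their controls, and the elongation factor EEF1A2, the form of neurons and muscle, at 1.42. Of 79 cytosolic ribosomal protein genes 7 rose and 16 fell, yet 20 rose and 10 fell under TPM scaling and 4 rose and none fell against the other control. Of 57 ribosome biogenesis genes 15 rose and 22 fell, and of 68 splicing genes 18 rose and 25 fell; TPM scaling turned both (20 against 16 and 26 against 21), and the other control turned the first (17 against 16).

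Nearly all called respiratory chain genes fell against the matching control, with small changes whose number depended on the scaling and the control. Of 36 tested nuclear complex I subunits, not counting NDUFS6, none rose and 18 fell, with a median of -0.19 (none rose and 12 fell against the other control, median -0.13, where 28.6% of all tested genes fell). Under TPM scaling 2 rose and 10 fell, with a median of -0.09. NDUFS5 had 44.8, 58.4 and 54.6 FPKM in the knockdown libraries, against 111, 101.2 and 103 in their controls and 121, 123 and 112 in the other control, and NDUFB3 changed by -0.65. Of 40 nuclear subunits of complexes II to V, 1 rose and 21 fell (median -0.18), with the ATP synthase gene ATP5G1 at -1.12. Under TPM scaling 4 rose and 13 fell (median -0.09), and against the other control 1 rose and 9 fell (median -0.11), a smaller share than the 28.6% of all tested genes. Of the 13 protein-coding genes of mitochondrial DNA none rose and 12 fell (median -0.49), but against the other control 1 rose and 5 fell (median -0.09). MT-CYB, the cytochrome b gene, had 1347, 1440.0 and 1422 FPKM in the knockdown libraries, against 2142, 2133 and 2187 in their controls and 1371, 1369 and 1387 in the other control, so the matching control alone stood apart. Of 30 genes of mitochondrial DNA transcription, replication and biogenesis 2 rose and 17 fell (4 and 11 under TPM scaling, 2 and 11 against the other control), and of 41 genes of mitochondrial import, folding and dynamics 10 rose and 12 fell, which TPM scaling turned (15 against 11). Within the import genes TIMM44 (1.002), HSPA9 (0.91) and TIMM17A (0.84) rose, and TOMM20, a receptor of the outer membrane, stood at 104, 113 and 104 FPKM in the knockdown, against 185, 188 and 185 in its control and 190.0, 196 and 188 in the other control.

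Most mitosis genes fell. Of 75 tested genes 68 fell and 2 rose, with a median of -0.68 and 13 at least 2-fold lower; against the other control 48 fell and 3 rose, with a median of -0.28. CDK1, the mitotic kinase, had 27.1, 30.2 and 28.7 FPKM in the knockdown libraries, against 59.5, 57.9 and 57.9 in their controls and 36.8, 38.7 and 37.5 in the other control. The knockdown libraries were lowest and the matching control highest, and the same order held for the means of CCNA2, BUB1B and KIF11, at 23, 20.4 and 23.6 FPKM in the knockdown, 46.2, 40.7 and 44.8 in its control and 29.4, 30.6 and 31.3 in the other control. Of 59 replication and S phase genes 9 rose and 31 fell (median -0.18, -0.14 against the other control). E2F8, a repressor of E2F targets, changed by -1.04, whereas CDC6, which loads the replicative helicase, was measured at 26.7, 23.9 and 24.9 FPKM in the knockdown libraries, against 10.1, 11.3 and 10.7 in their controls. Of 49 DNA repair and Fanconi genes 5 rose and 25 fell, led by BRIP1 (-1.05); 11 rose and 19 fell under TPM scaling, and 8 rose and 17 fell against the other control. In bulk RNA, fewer cells of a type or phase and less RNA per cell cannot be told apart.

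MYCN had 431, 608 and 528 FPKM in the knockdown libraries, against 1101, 1104 and 1101 in their controls and 898, 969 and 904 in the other control, with no overlap and a log2 change of -1.09 (SE 0.12, limma adjusted p = 8.69e-08). MYCNOS, which overlaps MYCN on the opposite strand and whose reads cannot be told apart from it without the counting settings, changed by -1.24. The list of the MYC family and its partners also holds ARRDC3, an arrestin-domain gene that is neither, so its counts are not of such factors alone. Of its 15 tested genes 4 rose and 8 fell, among them ARRDC3 (1.12) and MNT (0.58), a MYC antagonist, on the higher side. Of 30 tested adrenergic transcription factors 6 rose and 20 fell, with a median of -0.54 (-0.59 against the other control), and 8 fell at least 2-fold. ISL1, a sympathetic homeobox factor, had 16.1, 18.3 and 17.8 FPKM in the knockdown libraries, against 44.3, 45.5 and 43.4 in their controls and 41.5, 40.7 and 40.3 in the other control. TBX3 rose by 1.12 (0.29 against the other control). Of 29 tested mesenchymal factors 17 rose and 6 fell, with a median of 0.43 (0.24 against the other control). ID3, an inhibitor of differentiation, had 59.6, 74.4 and 66.8 FPKM in the knockdown libraries, against 8.77, 11 and 10.1 in their controls, and MAFF and SIX4 rose by 2.21 and 1.64. Of the 14 identity markers of neuroblastoma 10 fell and 3 rose, and their summed level was 1240 to 1613 FPKM in the knockdown libraries, 2450 to 2477 in their controls and 2458 to 2658 in the other control. MYCN and STMN2 are among the 14 and made up most of the fall of this sum, so it is not separate from the MYCN values above. The fibroblast markers summed to 179 to 207 FPKM in the knockdown, 161 to 168 in its control and 191 to 199 in the other control; their part in the mesenchymal counts was not tested.

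**Figure D4:**
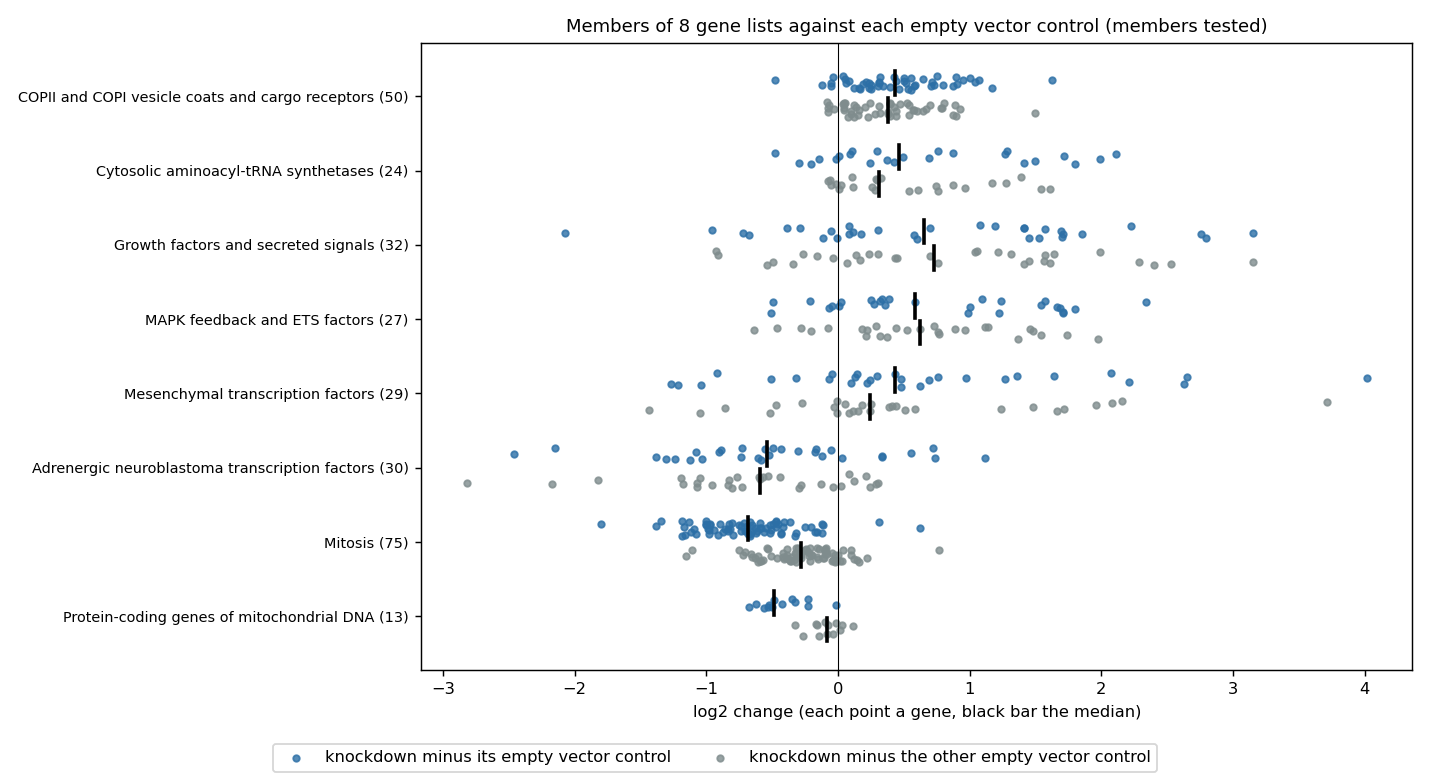
Log2 change of the tested members of 8 lists, a point per gene, against the matching control (blue) and the other empty vector control (grey), with medians as black bars and the number tested in brackets. The medians of the coat, growth factor, MAPK and adrenergic lists are close in both rows, while those of mitosis (-0.68 and -0.28) and of the mitochondrial DNA genes (-0.49 and -0.09) are nearer 0 against the other control.

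Many secreted signals and MAPK feedback genes rose. Of 76 growth factors and secreted signals 32 were tested, of which 19 rose and 6 fell, with a median of 0.65 (0.73 against the other control) and 15 at least 2-fold higher. STC2, a glycoprotein hormone that inhibits the IGF-releasing protease PAPP-A, was measured at 23.4, 23.5 and 23.1 FPKM in the knockdown libraries, against 4.43, 4.16 and 4 in their controls. VEGFA, the main angiogenic factor, stood at 20.9, 17.6 and 19.7 FPKM in the knockdown, against 6.89, 6.72 and 6.37 in its control, and BMP5 rose by 1.53. Of 27 tested MAPK feedback and ETS genes 20 rose and 3 fell (median 0.59, 0.62 against the other control). SPRY4, an inhibitor of receptor signalling, stood at 21, 20.8 and 20.9 FPKM in the knockdown, against 5.81, 5.91 and 5.67 in its control, and the phosphatases DUSP10 and DUSP4 and the ETS factor ETV5 rose by 2.34, 1.10 and 1.80. Of 24 tested receptor tyrosine kinases 10 rose and 6 fell. RET, the GDNF receptor, had 31.2, 29.8 and 31.5 FPKM in the knockdown libraries, against 9.66, 10.8 and 9.62 in their controls and 25.1, 25.5 and 25.7 in the other control, a change of 1.53 and of 0.27. Its co-receptor GFRA1 was near 0 in the knockdown, at 0.0356, 0.0357 and 0.0652 FPKM in the knockdown, against 1.32, 1.33 and 1.36 in its control.

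Matrix genes shifted in both directions. Of 27 tested genes of collagens and their processing 17 rose and 6 fell (median 0.48, 0.58 against the other control). SERPINH1, the collagen chaperone, had 69.1, 56.3 and 55.7 FPKM in the knockdown libraries, against 13.4, 13.6 and 13.8 in their controls, and COL3A1, which shares exon sequence with MIR3606, had 45.4, 51.6 and 50.5 in the knockdown, against 16.3, 15.6 and 17.2 in its control. The basement membrane chains COL4A1 and COL4A2, which lie side by side, fell by 1.45 and 1.23 but changed by 0.13 and 0.19 against the other control. Of 45 tested matrix glycoproteins, proteoglycans and proteases 28 rose and 11 fell, against 18 and 14 with the other control. SPARC rose by 1.41, tissue plasminogen activator PLAT by 1.84, and the proteoglycan SDC1 changed by -1.22 (-0.35). Of 21 tested integrins, cadherins and gap junction genes 11 rose and 7 fell; ITGA11, a collagen receptor, rose by 2.29 (0.92) and PCDH1 by 1.61. Of 35 TGF-beta, BMP and ID genes 20 rose and 11 fell. SKIL, a SMAD repressor, rose by 1.52.

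Among genes of cell death more rose than fell. Of 34 tested BCL2 family and caspase genes 18 rose and 6 fell, with a median of 0.21 (13 rose and 9 fell against the other control, median 0.05). TNFRSF10B, the death receptor DR5, stood at 4.67, 3.07 and 3.84 FPKM in the knockdown, against 0.195, 0.232 and 0.248 in its control, and entered the test only through the knockdown. PMAIP1 (NOXA) rose by 1.56 and its target MCL1, a survival protein, by 0.77.

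Neuronal lists depended on the control. More synaptic vesicle genes (15 and 8 of 33 tested), granule and neuropeptide genes (9 and 4 of 19), neural adhesion genes (26 and 14 of 54), neurotransmitter receptors (8 and 7 of 22) and axonal transport genes (19 and 9 of 40) rose than fell against the matching control, and in each of these lists more fell than rose against the other control. Single genes differed from both controls in one direction. STMN2, a microtubule regulator of growing axons, had 187, 228 and 211 FPKM in the knockdown libraries, against 445, 443 and 441 in their controls and 367, 387 and 356 in the other control. STMN4 of the same family rose by 1.75 (1.86), the peptide precursor VGF by 1.66 (2.22) and the synaptotagmin SYT4 by 0.93 (1.70), while LRRN3 changed by -1.54 (-1.57). CHRNA9 and HTR7, receptors for acetylcholine and serotonin, were near 0 in the controls and at 1.6, 1.33 and 1.72 and 1.18, 1.48 and 1.47 FPKM in the knockdown libraries. Among catecholamine genes DDC, which makes dopamine, rose by 1.21 (0.70), DBH, which makes noradrenaline from it, fell by 0.92 (2.74 against the other control), and TH, which starts the pathway, rose by 0.92 but changed by -0.54 against the other control. Of 21 semaphorins, plexins and neuropilins 6 rose and 9 fell (2 and 15 against the other control), with NRP1 at 1.13 and NRP2 at -1.24, and of 22 Wnt genes 5 rose and 12 fell.

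Several smaller families changed in both directions. The proteasome had 12 rises and 8 falls among 34 tested subunits (6 and 6 against the other control), the snoRNA host transcripts 12 and 8 of 24, the interferon and MHC class I genes 7 and 6 of 21 (11 and 3 both under TPM scaling and against the other control), the insulin-like growth factor axis 8 and 4 of 16, polyamine metabolism 5 and 3 of 15, the sodium and calcium channels 5 and 4 of 13 and the potassium channels 3 and 6 of 13. The slit, netrin and ephrin genes had 8 and 10 of 24 (9 and 9 under TPM scaling), the Notch pathway 6 and 7 of 18 (9 and 5 under TPM scaling, 7 and 7 under median of ratios scaling and against the other control) and the extracellular nucleotide genes 5 and 7 of 19 (7 and 7 under TPM scaling, 7 and 4 against the other control). SAT1, which breaks down polyamines, rose by 1.51, the sodium channel SCN3A by 1.44, the netrin receptor UNC5B by 1.32 and the Notch target HEY1 by 1.40.

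Fuel metabolism was mixed. Of 29 glycolysis and pyruvate genes 11 rose and 10 fell. The glucose transporter SLC2A3 had 9.45, 7.4 and 7.92 FPKM in the knockdown libraries, against 1.27, 1.27 and 1.46 in their controls, and SLC2A1 and the phosphofructokinase PFKP rose by 1.07 and 1.02. Of 41 genes of fatty acid and phospholipid synthesis 13 rose and 15 fell, turned by TPM scaling (16 and 13) and by the other control (13 and 12). GPAT3, an acyltransferase of triglyceride synthesis, stood at 5.34, 4.31 and 5.1 FPKM in the knockdown, against 0.173, 0.208 and 0.0659 in its control, and CPT1A, the gate of fatty acid oxidation, rose by 1.40, while the desaturases SCD and FADS2 changed by -0.98 and -0.84. Of 25 cholesterol genes 8 rose and 10 fell, also turned by TPM scaling (9 and 8) and evened by the other control (8 and 8). Of 19 clock genes 11 rose and 2 fell, including PER1 (1.42), NFIL3 (1.75) and BHLHE40 (1.69). Of 57 chromatin silencing genes 17 rose and 23 fell (22 and 18 under TPM scaling). CBX2, a Polycomb protein, changed by -0.79. Of 11 tested HOX genes 1 rose and 8 fell, against 2 and 3 with the other control. Of 25 genes of metal handling 10 rose and 9 fell, with the zinc transporter SLC39A14 at 0.998, and the metallothionein MT1G was listed at 0 in the 3 knockdown libraries, against 2.38, 2.11 and 1.22 FPKM in their controls. Of 20 NF-kappaB genes 9 rose and 5 fell, including the chemokine CXCL8 (1.70) and the hyaluronan receptor CD44 (-1.62, -0.57 against the other control).

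In amount of transcript per length, the largest gains outside the stress lists were GAPDH (mean 1055 FPKM in the knockdown, 863 in its control), ACTG1 (669.9 in the knockdown, 449 in its control), EEF2, CRABP2, ACTB, GARS, IL13RA2, PSAP, EIF2S2 and EIF1. IL13RA2, a decoy receptor for interleukin-13, was measured at 112, 109 and 105 FPKM in the knockdown libraries, against 29.9, 31.3 and 31.8 in their controls and 26.1, 31.7 and 26.6 in the other control. The 10 largest losses were all genes of mitochondrial DNA, led by MT-ATP8 (mean 7282 FPKM in the knockdown, 10442 in its control and 7815 in the other control), which shares sequence with MT-ATP6.

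By gene type, 11071 protein-coding genes had a median of -0.00, while 299 lincRNA genes had one of -0.25 (48.8% fell) and 380 antisense genes one of -0.26 (41.6% fell); the lincRNA and antisense medians were -0.22 and -0.21 against the other control. Shorter protein-coding genes held more of the large rises: 6.05% of the fifth with the shortest exonic length were at least 2-fold higher, against 2.66% of the fifth with the longest.

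By position, the median change differed between chromosomes against the matching control and much less against the other. It was 0.13 on chromosome 1, 0.11 on 5 and 0.15 on 20, and -0.15 on 13, -0.17 on 17, -0.17 on 19 and -0.16 on 21; against the other control the nuclear chromosomes lay between -0.11 and 0.05. In 434 runs of 25 neighbouring protein-coding genes, the SD of the median change was 0.154 against the matching control and 0.0956 against the other, and 31 runs lay beyond 0.3 in either direction against the matching control and none against the other. The 3 runs at chr1:63367575-91525764 had medians of 0.44, 0.43 and 0.46, against 0.01, -0.01 and 0.19 with the other control. Those at chr3:14651746-37050918 had 0.45 and 0.44, against 0.07 and -0.04. The runs were looked at after the values were seen. Their cause was not tested.

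**Figure D5:**
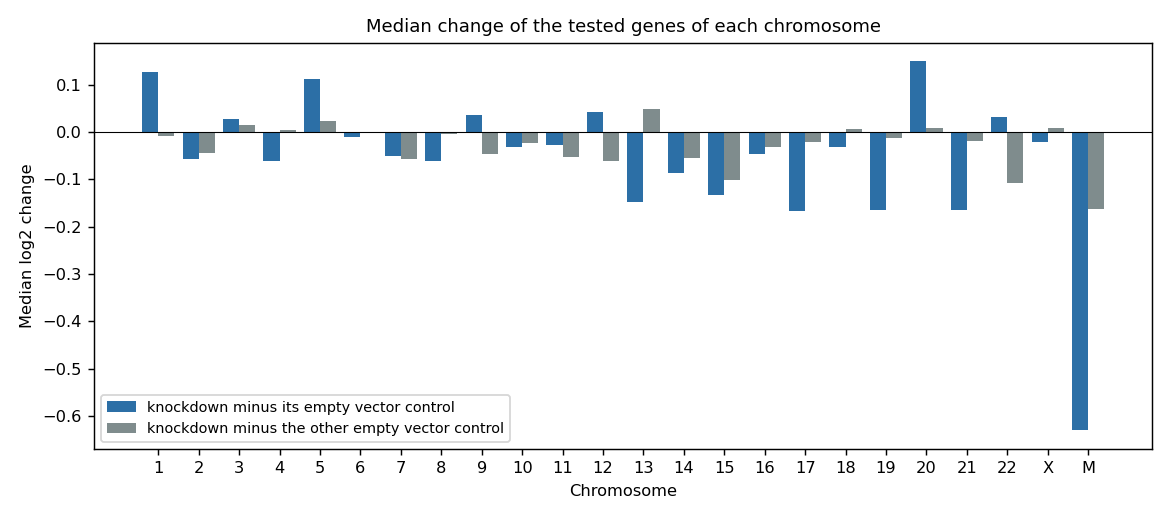
Median log2 change of the tested genes of each chromosome (M, mitochondrial DNA), for the knockdown minus its empty vector control (blue) and minus the other empty vector control (grey). Against the matching control the bars of chromosomes 1, 5 and 20 stand above 0.1 and those of 13, 15, 17, 19 and 21 below -0.1, and the grey bars of the same chromosomes lie nearer 0.

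The same contrast in SH-SY5Y was set beside these changes. The difference between the lines, each against its matching control, passed limma's test in 7677 genes (58.3%). In 4010 of these, or 52.2%, the change on knockdown was more positive in SK-N-BE(2), which includes genes that fell less there. Under TPM scaling this share was 70.2%, and the median difference over all genes moved to 0.171, against 0.007. The difference passed the test in 656 of the 722 genes (90.9%) that changed at least 2-fold here: 472 of 506 rises and 184 of 216 falls. These genes were chosen for a large change in SK-N-BE(2), which by itself favours a difference and a smaller median in SH-SY5Y, so the shares and medians that follow are a description and do not show which changes were particular to the line. Over all 13163 tested genes, 7528 were called in SH-SY5Y in either direction, and the counts of calls there are to be read against this. Of the 506 rises, 232 were also called higher in SH-SY5Y, 114 were called lower and 160 were not called, and their median change there was 0.15, against 1.41 in SK-N-BE(2). Of the 216 falls, 94 were called lower, 54 higher and 68 were not called, with a median of -0.15, against -1.20. Shared 2-fold rises numbered 55, which is 10.9% of the 506 here and 19.5% of the 282 of SH-SY5Y among the same tested genes. Shared 2-fold falls numbered 27, 12.5% of the 216 and 6.11% of the 442. Genes that did not pass the filter in SK-N-BE(2) are left out of the 282 and the 442, so these are not all 2-fold changes of SH-SY5Y. NPY rose by 3.85 in SK-N-BE(2) and changed by -1.39 in SH-SY5Y, while IGFBP3 rose in both lines, by 4.21 and 3.63. Of the 75 mitosis genes 68 fell here and 75 in SH-SY5Y, with medians of -0.68 and -0.98. CDK1 changed by -1.004 in SK-N-BE(2) and by -1.03 in SH-SY5Y, and the difference of 0.02 did not pass the test (limma adjusted p = 0.748).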

How the data were processed

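RNA of 24 libraries was sequenced, and the deposited table gives FPKM per gene and library, made by the authors with STAR and StringTie 1.3.1c on hg38 after FastQC 0.11.2, per the submitters' processing notes; strand and counting settings were not stated there. Groups follow the sample titles. Values were taken as log2(FPKM + 1), and genes at 1 FPKM or more in at least 3 of the 6 libraries compared were tested with limma 3.58.1 in R 4.3.3 (trend and robust moderation, 24 libraries in 8 groups, 16 residual degrees of freedom, Benjamini-Hochberg adjustment over all 13164 genes). A gene is called at an adjusted p under 0.05. The knockdown was compared with its matching control, with the other empty vector control and, as a difference of differences, with SH-SY5Y. The test was checked on simulated data. Depth is unknown, and no intervals that need it are given.

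The members and lists were chosen with earlier results of these data known. Named genes are NDUFS6 and MYCN; the 12 largest rises and falls outside the stress lists with a mean of 5 FPKM or more in the higher group and outside all 6 empty vector libraries; the 6 largest each way that overlap the other control; the 10 largest gains and losses of FPKM; up to 8 genes each way that are at or under 0.5 FPKM in 1 group and at or over 2 in the other; and up to 4 members per list with the smallest adjusted p. Genes with a motif, their neighbours and the host genes of microRNAs were named after their values were seen. Some genes that these rules name, and 1 list, are not reported here. Gene models for shared exons and positions are those of GENCODE release 29, matched to 99.6% of tested genes, and sequences are from RefSeq (GRCh38.p14). Alternatives were another pseudocount, filter, scaling, moderation, set of libraries and control, the replicate number as a block, and leaving out each library.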

Additional observations from a re-analysis of the deposited data

Results flagged for a closer look

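The change on knockdown differed between SK-N-BE(2) and SH-SY5Y in 7677 genes by limma's test of the difference itself (adjusted p under 0.05). The values below are the SK-N-BE(2) change minus the SH-SY5Y change on the log2 scale, for the named genes that passed it. Both changes are against the matching control of the line, and the difference was not run with the other control of SK-N-BE(2). Against that other control IGFBP3, NT5E, MT-TW and VEGFD changed by much less, as given above, while TNFRSF12A changed by a similar amount.

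Among the genes that rose in SK-N-BE(2), the difference was 5.24 for NPY, 3.81 for CNN2, 3.77 for FOSL1, 3.63 for MIR616, 3.47 for GDF15, 3.19 for THBS1 and 3.11 for ANGPTL4. It was 2.9 for SIPA1L2, 2.83 for AC012181.2, 2.75 for AC012181.3, 2.68 for DLX2, 2.64 for ADM2, 2.21 for S100A10 and 2.2 for CDKN1A. The smallest of these differences were 1.96 for CAVIN1, 1.92 for TNFRSF12A and 0.58 for IGFBP3. NPY changed in opposite directions, by 3.85 in SK-N-BE(2) and by -1.39 in SH-SY5Y, while GDF15 changed by -0.32 and THBS1 by -0.07 in SH-SY5Y, neither of which was called there.

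Among the genes that fell in SK-N-BE(2), the difference was -5.5 for NT5E, -4.2 for SLITRK6, -3.87 for GJA1, -2.48 for TMEM100, -2.33 for MT-TW, -2.29 for SLFN11 and -2.26 for VEGFD. It was -1.81 for CHSY3, -1.78 for AL121594.3, -1.6 for INSM2, -1.58 for EMP3, -1.21 for VSNL1, -1.05 for NDUFS6, -1.0 for TXNIP and -0.68 for MYCN. NT5E, SLITRK6 and GJA1 changed by 0.86, 2.27 and 1.13 in SH-SY5Y. NDUFS6 itself changed by -2.38 in SK-N-BE(2) and by -1.33 in SH-SY5Y, so the target itself fell by different amounts in the lines; its part in the other differences was not tested.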

How the results depend on the processing

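The 8219, 7071 and 7677 calls (matching control, other control, difference between lines) stayed within 1.5-fold under every alternative run except the stricter filter, a mean of 5 FPKM or more, which tests 6954 genes and gave 4679, 4128 and 4412. That filter gave 265 rises and 129 falls of 2-fold or more, and a pseudocount of 0.1 gave 834 and 512, against 506 and 216; with the other control there were 371 and 139. Leaving out each library in turn gave 7569 to 7947, 6289 to 6781 and 7246 to 7588 calls, 482 to 539 2-fold rises and 195 to 248 2-fold falls, and a log2 change of NDUFS6 from -2.49 to -2.30. The fewest calls against either control, and the fewest 2-fold rises and falls, came without knockdown library 1. The deviations of same-numbered libraries correlated at -0.0231, -0.0093 and -0.038 between the knockdown and its control, and at 0.0503, 0.341 and 0.1912 between the knockdown and the other control, where 2 of the 3 knockdown libraries correlated best with their own number and unlike numbers reached -0.274. Not every pair exceeded 0.1, so the numbers were not taken to pair the libraries. A fit with the replicate block gave 8312, 7148 and 7791 calls and changed the call of none of the 201 genes named.

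Genes whose direction turned against the other control were ADAM12 (0.0131), COL4A1 (0.134), COL4A2 (0.1943), DLX1 (-0.0667), MT-CYB (0.0276), NRAS (0.0232), TH (-0.5397) and TMEM120A (0.2585); the cause was not tested. Without a count table, the limit that depth sets on low genes is unknown.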
